A study of Mus musculus with 250 samples.

Results

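Among 250 single mouse brain cells whose titles call them astrocytes, 51 were chosen by their own A2m and Gdf10 counts, with either gene at 10 CPM or more (CPM is the gene's reads scaled to a total of 1000000 in the cell), and are called marker cells here. The other 199 cells fell below that level for both genes and are called other cells. The cells came from adult C57BL/6 mice, about 3 months old per the series design text, and all of the mice carried SM22-Cre and Rosa26-stop-tdTomato. SM22 is the smooth muscle protein encoded by Tagln, and Cre made from its promoter turns on the red fluorescent protein tdTomato in cells that have used that promoter. A fluorescence sorter placed single cells in wells, by gates not given in the sources used here. Each cell was profiled as full-length cDNA by the Smart-seq2 method. There was no treatment, and no other genotype. The headers of the count table place 162 cells on one plate, called plate 2, and 88 on another, called plate 3. The labels tie no cell to an animal, the cells form 1 group, and the SD given with a mean is between cells. For that reason no test was run, and the question put to each gene was whether its difference had the same direction on both plates.

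A2m and Gdf10 are markers of Bergmann glia, the radial astrocytes of the cerebellar cortex. Their cell bodies lie beside those of Purkinje neurons and their fibres reach the surface of the cerebellum. A2m encodes alpha-2-macroglobulin, a large secreted protein that traps proteases and binds growth factors and is taken up through the receptor Lrp1. Gdf10, also called Bmp3b, encodes a secreted ligand of the transforming growth factor beta (TGF-beta) family. Bergmann glia are also known for AMPA-type glutamate receptors built from Gria1 and Gria4, for the glutamate transporter Slc1a3, and for the fatty acid binding protein Fabp7. The tissue label reads brain, and the labels do not name a region.

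The marker cells made up 20.4% of all cells, with an exact binomial interval of 15.6% to 25.9%. Plate 2 held 34 of them among 162 cells (21.0%) and plate 3 held 17 among 88 (19.3%). A2m was at or above the level in 34 cells and Gdf10 in 27, while 10 cells had both, 24 had A2m only and 17 had Gdf10 only. Sequencing depth was similar in both classes, with a median of 307118 reads (126234 to 506792) in marker cells and 273815 (102161 to 564958) in other cells. The median number of genes at 10 CPM or more was 2436 in marker cells and 2390 in other cells. At the median depth of all cells, 10 CPM is worth 2.82 reads.

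The values that chose the cells were close to all or none. Of the 199 other cells, 196 had no read of either gene, and the remaining 3 had a larger value of 2.68, 6.95 and 9.30 CPM, which rest on 1, 1 and 2 reads. The 6 marker cells just inside the level had 10.8, 11.3, 12.5, 14.1, 14.8 and 18.7 CPM, which rest on 3 to 6 reads. Most marker cells lay far above it. A2m (chromosome 6, 121635376 to 121679227, plus strand, mm10) had a median of 429 CPM in the 34 cells with it, from 10.8 to 1420, and 27 of them were at 100 CPM or more. Its mean in those cells was 507 ± 430 CPM on plate 2 (SD, 23 cells) and 444 ± 391 on plate 3 (SD, 11 cells). Gdf10 (chromosome 14, 33923587 to 33937983, plus strand, mm10) had a median of 347 CPM in the 27 cells with it, from 12.5 to 1324, and 21 of them were at 100 CPM or more. In the marker cells as a class, A2m was carried by 5231 reads and Gdf10 by 3422, against 3 reads and 1 read in all other cells together. Pzp and Mug1, relatives of A2m whose reads could be confused with it, had no read in marker cells and 2 reads each in the other cells.

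**Figure D1:**
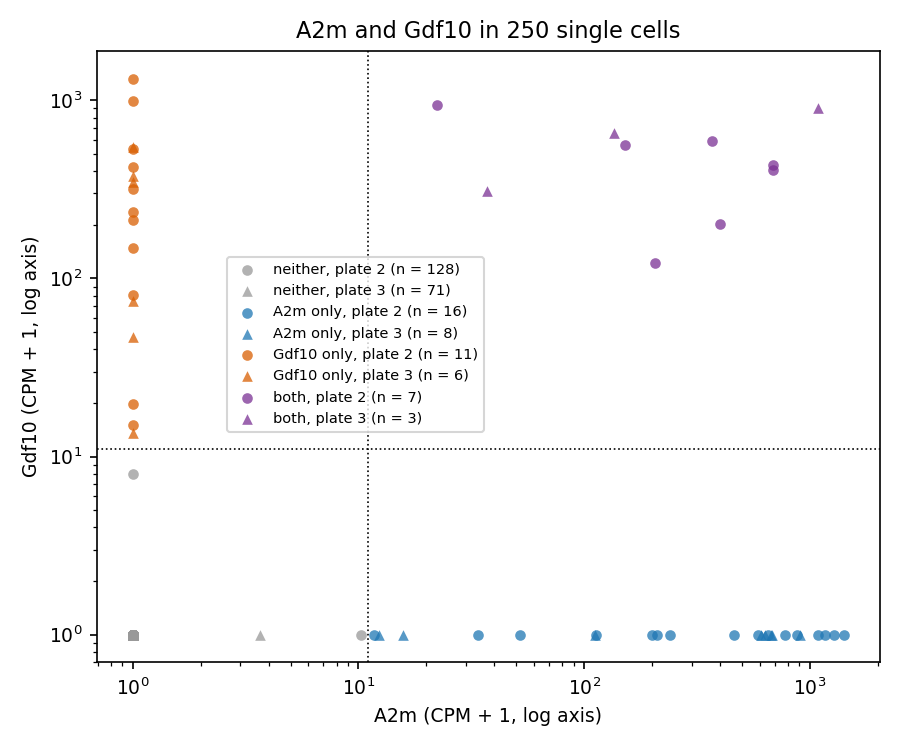
A2m (x axis) and Gdf10 (y axis) in each of the 250 cells, as CPM + 1 on log axes, with circles for plate 2, triangles for plate 3 and dotted lines at 10 CPM. The cells lie along the 2 axes or in the upper right corner, where the 10 cells with both genes stand, and only 3 of the 199 grey cells are off the origin.

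Over all cells, A2m and Gdf10 were counted together more often than the product of their separate frequencies gives. This is a description only, since the same values chose the marker cells. The intervals given here cover counting error only. No label ties a cell to an animal, so the cells cannot be taken as independent replicates. Whether the excess goes beyond chance was not tested. Gdf10 was present in 29.4% of the 34 A2m cells (exact binomial interval 15.1% to 47.5%) and in 7.87% of the 216 cells without A2m (4.65% to 12.3%). The product of the shares of A2m and Gdf10 cells gives 3.67 cells with both, and 10 were seen, a ratio of 2.72. The ratio was 2.74 on plate 2, with 7 cells seen. On plate 3 it was 2.67, which rests on only 3 cells seen. Most marker cells nevertheless had only 1 of the 2 genes, and in 24 cells with A2m only, no Gdf10 read was found at all. The level of A2m was 376 ± 345 CPM in cells with both genes and 533 ± 437 in cells with A2m only (SD between cells). Gdf10 was at 512 ± 274 CPM in cells with both and at 335 ± 362 in cells with Gdf10 only. These spreads overlap.

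The 10 cells with both genes are the core of the class, and they are named here by plate and by the number in their title. On plate 2, cell 28 had 151 CPM of A2m and 562 of Gdf10. Cell 46 had 684 CPM of A2m and 434 of Gdf10, and cell 116, with 684 and 406, was much like it. Cell 56 had 366 CPM of A2m and 592 of Gdf10. A2m exceeded Gdf10 in cell 62, with 399 and 201 CPM, and in cell 68, with 206 and 121 CPM. Cell 115 was the most uneven, with 21.2 CPM of A2m and 939 of Gdf10. On plate 3, cell 189 had 36.2 CPM of A2m and 307 of Gdf10, and cell 219 had 134 and 650. Cell 228 was high in both, with 1084 CPM of A2m and 906 of Gdf10. Gdf10 exceeded A2m in 5 of the 10 cells, so within the core neither gene was steadily the higher in CPM, a scale that does not correct for gene length. Each core cell had 13 to 16 of 16 astrocyte markers, and 3 of the 10 also had at least 3 oligodendrocyte markers.

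The class as a whole also carried the astrocyte programme. The 16 astrocyte markers, among them the gap junction gene Gja1, the glutamate transporter Slc1a2 and the water channel Aqp4, were at 10 CPM or more in a median of 15 per cell in both classes. Their summed level was 46742 ± 7504 CPM in marker cells and 44582 ± 7191 in other cells. Of the 16, none was at least 1.5-fold higher in marker cells on both plates and 1 was at least 1.5-fold lower on both, namely Gfap. Gfap, an intermediate filament gene of fibrous and reactive astrocytes, averaged 38.0 CPM in marker cells and 64.9 in other cells, but it was present in 13.7% and 12.6% of them, and 1 cell held 30.1% of all its CPM.

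The name Bergmann glia was then checked on 14 further markers that the choice of cells had not used. They did not separate the classes. A cell had a median of 5 of the 14 in both classes, with means of 5.25 ± 1.38 in marker cells and 5.16 ± 1.32 in other cells (SD), and the 10 core cells had 4 to 6. The comparison over all genes covered 6696 genes other than A2m and Gdf10 with a mean of 20 CPM or more and 25 or more cells at 10 CPM. Against it, 4.21% of genes were at least 1.5-fold higher in marker cells on both plates and 8.45% were at least 1.5-fold lower. Of the 14 markers, 8 were among these genes, and 0 were higher and 1 was lower by this rule. The median log2 fold of the 8 was -0.02, beside -0.05 for all 6696 genes. The class is therefore called by its leading genes, A2m and Gdf10, and not Bergmann glia.

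Of the glutamate-handling genes of Bergmann glia, Gria1 and Slc1a3 were present in most cells of either class and Gria4 in few. Gria1, an AMPA receptor subunit, ranged from 0 to 2927 CPM around a median of 651 in marker cells and from 0 to 4071 around 496 in other cells. Its mean was 832 ± 779 CPM against 620 ± 651, with a log2 fold of 0.43 on plate 2 and 0.36 on plate 3. Gria1 was thus above the other cells on both plates, but by less than 1.5-fold and well within the spread between cells. Slc1a3, also called GLAST, was found in 51 of 51 marker cells and 197 of 199 other cells, with a log2 fold of 0.38 on plate 2 and -0.05 on plate 3. Gria4 was found in 4 of 51 and 12 of 199 cells, and in none of the 10 core cells.

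Fabp7, the lipid-binding protein of radial glia, was present in 37 of 51 marker cells (72.5%, exact binomial interval 58.3% to 84.1%) and 116 of 199 other cells (58.3%, 51.1% to 65.2%). Its mean was 230 ± 272 CPM against 216 ± 296, so the mean hardly moved, and in the core it was 98.0 ± 127 CPM with 6 of 10 cells above the level. Fabp7, Gria1 and Slc1a3 together were found in 33 of 51 marker cells (64.7%, exact binomial interval 50.1% to 77.6%). In other cells it was 97 of 199 (48.7%, 41.6% to 55.9%). Slc1a3 was in nearly every cell, so these shares rest mainly on Fabp7 and Gria1. When every cell was thinned to 100000 reads, these shares were 68.6% and 55.3%, and in the core 5 of 10 cells had all of them. The protease inhibitor Timp4 went the other way, in 37 of 51 marker cells (72.5%) and 171 of 199 other cells (85.9%), with a log2 fold of -0.37 on plate 2 and 0.09 on plate 3. Etv4, Dao and Hopx were also in a smaller share of marker cells, so the genes joined above do not stand for the 14 markers.

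Sept4, a cytoskeletal septin, was above the other cells on plate 2 only. Its mean was 327 ± 503 CPM in marker cells and 125 ± 264 in other cells, with a log2 fold of 1.76 on plate 2 and -0.26 on plate 3. The 7 core cells of plate 2 had 388, 997, 1171, 583, 462, 2460 and 198 CPM of Sept4 in order of cell number, and the 3 of plate 3 had 0, 59.9 and 295. So Sept4 was at 10 CPM or more in 9 of the 10 core cells, against 66 of 199 other cells (33.2%), 8 of 24 cells with A2m only and 9 of 17 with Gdf10 only. Sept4 lies on chromosome 11 and overlaps the gene model Gm11492 on the same strand, so reads of the 2 may not be separable.

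The remaining markers were sparse. Etv4, an ETS factor that acts below fibroblast growth factor signalling, was the 1 marker lower on both plates, with 42.3 CPM against 75.4, in 8 of 51 and 54 of 199 cells. This call ended at 1 read, at 5 CPM, with summed reads, with median-of-ratios scaling and without the cells with both genes. It also ended for A2m cells, and for A2m without Gdf10, against cells with neither gene. Its relative Etv5 had a log2 fold of -1.02 on plate 2 and 0.50 on plate 3. Ptch1, the Sonic hedgehog receptor, was at 91.0 ± 117 CPM in marker cells and 100.2 ± 158 in other cells. Dao, the D-amino acid oxidase of cerebellar astrocytes, was in 0 of 51 marker cells, which allows a share of up to 5.88%, and in 17 of 199 other cells (8.54%). Hopx was in 0 of 51 and 5 of 199 cells, and Wif1 had no read in any of the 250 cells. Npy had a log2 fold of -1.65 on plate 2 and 2.53 on plate 3, and the matrix gene Tnc was found in 3 marker cells and 8 other cells, all on plate 2.

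**Figure D2:**
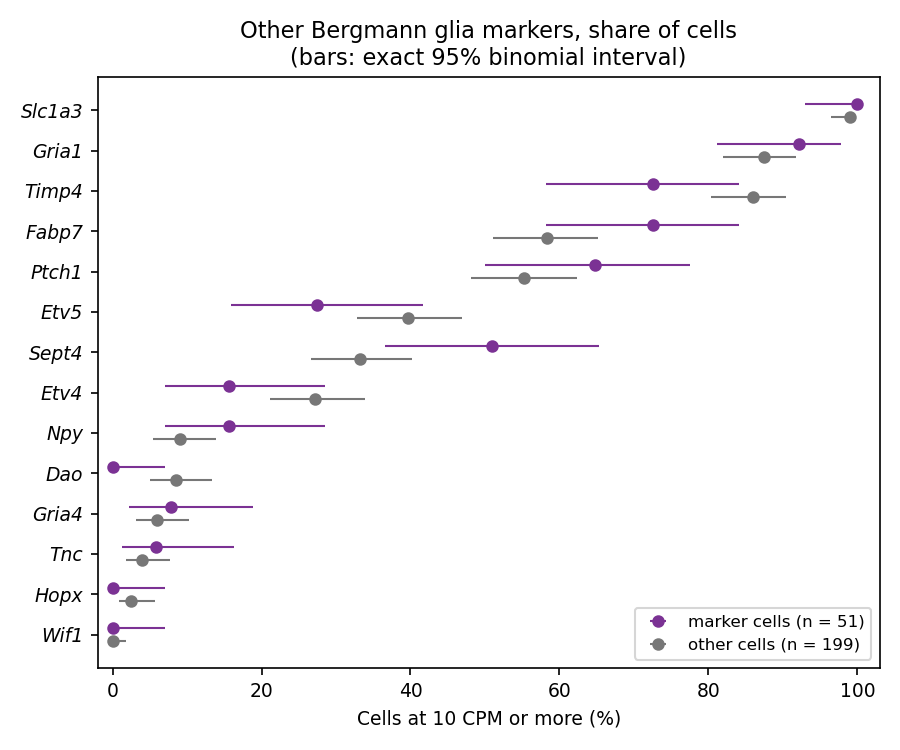
Share of cells at 10 CPM or more (x axis, %) for the 14 Bergmann glia markers that did not choose the cells, in marker cells (purple, n = 51) and other cells (grey, n = 199), with exact 95% binomial intervals, which cover counting error only. Slc1a3 and Gria1 stand near the top of the scale in both classes, Wif1 at 0 in both, and the intervals of the 2 classes overlap for each of the 14 genes.

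The summed level of the 14 markers was 7267 ± 3026 CPM in marker cells and 6168 ± 2785 in other cells, of which Slc1a3 made up the larger share in both. The sum differed on plate 2, with 7857 against 6283 CPM, and hardly on plate 3, with 6087 against 5961. Among marker cells it was 8456 ± 3536 CPM in cells with Gdf10 only, 6632 ± 2780 in cells with A2m only and 6770 ± 2212 in cells with both. So the cells with both genes did not have the highest sum.

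**Figure D3:**
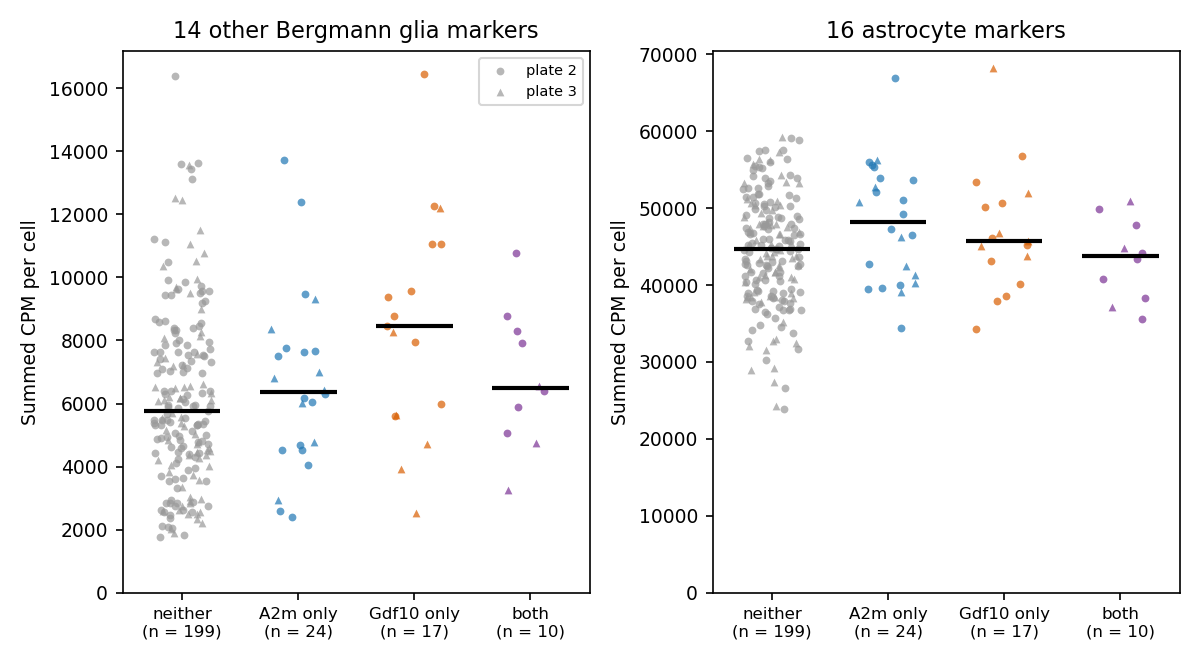
Summed CPM per cell (y axes, from 0) of the 14 other Bergmann glia markers (left) and of 16 astrocyte markers (right), for cells with neither gene (n = 199), A2m only (24), Gdf10 only (17) and both (10). Points are cells (circles plate 2, triangles plate 3), horizontal bars are medians, and the 4 classes overlap over most of their range in both panels.

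Regional transcription factors were read next, since Bergmann glia belong to the cerebellum. En1 and En2, homeobox genes of the midbrain and cerebellum, were found in 3 of 51 marker cells (5.88%) and 19 of 199 other cells (9.55%), and in 0 of 10 core cells. At least 1 of the Irx genes, which mark the thalamus, midbrain and hindbrain, was found in 41.2% of marker cells and 38.7% of other cells. The plates went opposite ways, with 29.4% against 37.5% on plate 2 and 64.7% against 40.8% on plate 3. At least 1 of 23 caudal factors was found in 52.9% and 48.2%, again with opposite directions, 44.1% against 46.9% on plate 2 and 70.6% against 50.7% on plate 3. At least 1 of 12 forebrain factors was found in 88.2% of marker cells and 85.4% of other cells, and in 45.1% and 43.7% when the widely found Tcf7l2 was left out. In the core, 10 of 10 cells had a forebrain factor, 4 of 10 had one other than Tcf7l2, and 4 of 10 had a caudal factor. The telencephalic astrocyte gene Mfge8 had a log2 fold of -0.61 on plate 2 and 0.20 on plate 3. The summed level of 5 telencephalic astrocyte genes, Mfge8 among them, was 1915 ± 1462 CPM in marker cells, 2386 ± 1956 in other cells and 1061 ± 514 in the core. By plate the sums were 1633 against 2507 CPM on plate 2 and 2478 against 2166 on plate 3. Otx2, a factor of the forebrain and midbrain, was at least 1.5-fold higher on both plates, at 70.9 ± 205 CPM against 43.5 ± 137, while it was detected in similar shares of cells, 17.6% and 16.6%.

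The Zic genes, zinc finger factors of the dorsal neural tube and cerebellum, were found in a larger share of marker cells on both plates. At least 1 of Zic1 to Zic5 was found in 9 of 51 marker cells (17.6%, exact binomial interval 8.40% to 30.9%) and 11 of 199 other cells (5.53%, 2.79% to 9.68%). The shares were 17.6% and 5.47% on plate 2, and 17.6% and 5.63% on plate 3. After thinning to 100000 reads they were 23.5% and 8.54%. By subclass, Zic genes were found in 3 of 10 core cells, 4 of 17 cells with Gdf10 only and 2 of 24 with A2m only. Zic1 was found in 5 marker cells and 2 other cells, at no more than 39.4 CPM in any marker cell, and it carried 42 and 35 reads. This set was singled out after its values were seen. Zic1 and Zic4 overlap on opposite strands of chromosome 9, and no label says whether the counting used strand, so their reads may not be separable.

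Among markers of other astrocyte types, 5 genes of Gfap-high astrocytes were tested, and 1, Id3, was higher on both plates while 1, Gfap, was lower. Of all tested genes, 4.21% were higher and 8.45% lower, and 5 genes are too few to compare with these shares. None of the 6 velate and protoplasmic astrocyte genes was called in either direction. Kcnj10, the inward rectifier potassium channel of astrocytes, was at 1064 ± 832 CPM in marker cells and 777 ± 724 in other cells, with a log2 fold of 0.78 on plate 2 and 0.07 on plate 3. In the 10 core cells Kcnj10 was at 1534 ± 743 CPM and was never below 454. Of the 7 non-telencephalic astrocyte genes 6 were tested, and 0 were called. Agt, angiotensinogen, a secreted protein of non-telencephalic astrocytes, had a mean of 5328 CPM and a median of 4875 in marker cells (0 to 15713), against 4062 and 3679 in other cells (0 to 15680), with a log2 fold of 0.33 on plate 2 and 0.50 on plate 3. Every core cell had Agt at 3223 CPM or more, with a mean of 6553 ± 2307, but the median of the other cells, 3679, also lay above 3223.

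Gdf10 signals within the TGF-beta family, and other genes of that pathway were read from lists. Over all tested genes, 4.21% were called higher and 8.45% lower. The lists here held 3 to 8 tested genes, too few to set a share against these. Of the other ligands, 3 passed the filter and 0 were called, with Bmp1 at 186 CPM in marker cells and 176 in other cells. Of 4 receptors tested, Acvr1, a type I receptor for bone morphogenetic proteins, was higher on both plates (66.0 ± 167 against 32.6 ± 146 CPM, in 9 of 51 and 20 of 199 cells). Bmpr2, a type II receptor, was lower on both (41.3 ± 111 against 90.4 ± 222 CPM), although it was found in 25.5% of marker cells and 27.1% of other cells. None of the 4 tested Smad genes, the intracellular relays of the pathway, was called. Among 8 antagonists and targets, 2 were higher and 0 lower. Id3, a target of bone morphogenetic protein signals, was at 355 ± 574 CPM in marker cells and 181 ± 388 in other cells, and in 51.0% and 38.2% of them. Its mean was 612 CPM in cells with Gdf10 only, 286 in cells with both and 201 with A2m only. Its relative Id2 was at 635 ± 596 against 609 ± 554 CPM, and so did not share the difference. Ltbp3, which holds latent TGF-beta in the matrix, was at 155 ± 298 against 80.5 ± 198 CPM.

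Lists of genes tied to A2m and to Bergmann glia signals were read in the same way. They held 5 to 8 tested genes, too few to set against the 4.21% higher and 8.45% lower of all tested genes. Of 5 A2m receptors and ligands tested, 0 were called, and 3 were above the other cells on both plates, beside 21.3% of all tested genes. The A2m receptor Lrp1 was found in 50 of 51 marker cells and 190 of 199 other cells, at 820 ± 512 and 752 ± 607 CPM. Of 8 further protease inhibitors tested, 0 were called in either direction. Itih3, which like A2m encodes a secreted protein, had a log2 fold of 0.38 on plate 2 and -0.59 on plate 3. Of the 8 Sonic hedgehog pathway genes tested, 0 were called, and Gli1, the readout of the pathway in Bergmann glia, had a log2 fold of 0.67 on plate 2 and -0.68 on plate 3.

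Of the 8 endfoot and gap junction genes, 6 were above the other cells on both plates, beside 21.3% of all tested genes. By the 1.5-fold rule 1 of the 8 was called higher, beside 4.21% of all tested genes. A list of 8 genes is too small to compare with these shares, and it is 1 of 36 lists that were read. Their summed level was 14273 ± 3302 CPM in marker cells and 12601 ± 3785 in other cells. By plate the sums were 14602 against 13395 CPM on plate 2 and 13616 against 11170 on plate 3, so the gap had the same direction on both and lay within the spread between cells. Dtna, dystrobrevin alpha, a part of the dystrophin complex at endfeet, was at 639 ± 531 against 461 ± 504 CPM. Its log2 fold was 0.18 on plate 2 and 0.98 on plate 3, so it was not the called gene. Gja1, the main connexin of astrocytes, had a log2 fold of 0.11 on plate 2 and 0.24 on plate 3.

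Across all lists, 148 members passed the filter, and 5 were higher and 5 lower on both plates, or 3.38% each way, beside 4.21% and 8.45% of all genes. Among the higher ones were Acvr1, Id3, Ltbp3 and Otx2. The lower ones were Bmpr2, Etv4, Gfap, Fdps, an enzyme of cholesterol synthesis, and Myl9, a myosin light chain of smooth muscle. So list members were called no more often than genes at large. With median-of-ratios scaling 4 list members were higher and 0 lower, so the 5 lower calls ended. With the highest cell of each class and plate left out, 1 was higher and 7 were lower.

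Over all 6696 genes, 282 were at least 1.5-fold higher in marker cells on both plates and 566 were at least 1.5-fold lower. These counts were close to what the plates give when read independently. The shares of genes past the fold on each plate multiply to 237 higher and 510 lower genes, and 765 genes passed it in opposite directions. Of the genes 1.5-fold higher on plate 2, 25.9% were also higher on plate 3, against 21.7% of all genes. For lower genes the shares were 34.9% and 31.4%. Across the 6607 genes with a finite value on both plates, the log2 folds of the plates had a Pearson r of 0.0345 and a Spearman rho of 0.0158, as a description, since genes are not independent replicates. The same sign on both plates was seen for 51.2% of genes, beside 50.4% from the frequencies of each sign. With the difference of mean log2(CPM + 1) in place of the ratio of means, 327 genes were higher and 250 lower, of which 110 and 144 were shared with the first counts. Leaving out the highest cell of each class and plate for each gene gave 104 higher and 1467 lower. When only the 969 genes detected in 125 or more cells were read, a limit chosen after the data had been seen, 1 was higher (0.103%) and 14 were lower (1.44%).

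**Figure D4:**
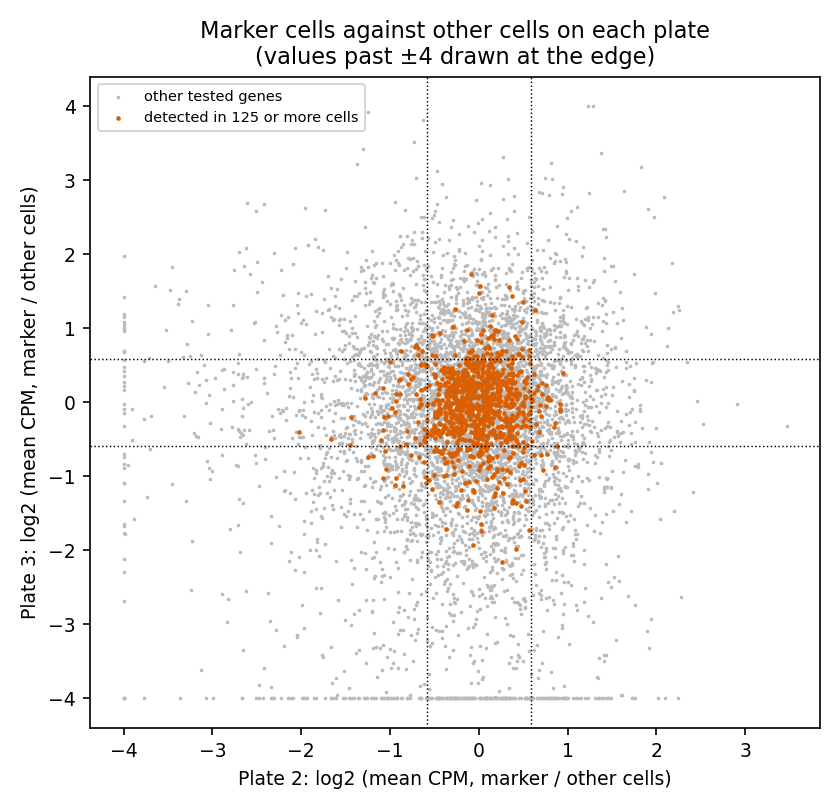
Log2 ratio of mean CPM, marker cells over other cells, on plate 2 (x axis) and plate 3 (y axis), for the tested genes, with orange points for genes detected in 125 or more cells and dotted lines at 1.5-fold. The points form a round cloud with a Pearson r of 0.0345, and well detected genes lie close to 0 on both axes.

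The genes that ranked first by the smaller of their plate folds were mostly of low detection, and many of them had unequal folds on the plates. Stx6, a syntaxin of the trans-Golgi network, led the higher genes with 103 ± 196 CPM against 24.9 ± 102, in 16 of 51 and 25 of 199 cells, and log2 folds of 2.17 and 1.88 on plates 2 and 3. Wdr77, a partner of the arginine methyltransferase Prmt5, was in 17 of 51 (33.3%) and 15 of 199 cells (7.54%), at 142 ± 247 and 35.0 ± 165 CPM. Mpzl1, a cell surface protein of the myelin protein zero family, had the largest share of cells among them. It was in 30 of 51 marker cells (58.8%) and 57 of 199 other cells (28.6%), and its medians were 188 and 0 CPM. The mean of Mpzl1 was 324 ± 416 against 110 ± 225 CPM, with a log2 fold of 1.56 over both plates together. Mbnl2, a splicing regulator, was in 26 of 51 (51.0%) and 60 of 199 cells (30.2%), at 162 ± 260 and 63.8 ± 144 CPM.

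The other 11 higher genes were Rab23, Dnajc13, Hccs, Rab6b, Mkks, Zeb2, Ano6, Synrg, Tank, Arcn1 and Wasf1. Each was present in 10 to 19 of the 51 marker cells and 17 to 39 of the 199 other cells. On plate 3, Dnajc13 (17.6% against 19.7%), Zeb2 (17.6% against 21.1%) and Ano6 (17.6% against 18.3%) were in a smaller share of marker cells than of other cells. Rab6b is a small GTPase of the Golgi, Synrg binds clathrin adaptors, and Arcn1 is a coat protein of Golgi vesicles. Zeb2 is a zinc finger repressor, and Ano6 moves phospholipids across the cell membrane. Stx6 and Mpzl1 each hold a processed pseudogene on their own strand within their bounds.

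The lower genes were absent from most cells of both classes, and the ranking chose all 15 for their gap. All 15 had a mean below 20 CPM in marker cells, so each passed the filter on level only through the other cells. Their low values in marker cells are thus a description of the choice. Tada1, a subunit of histone acetyltransferase complexes, was in 0 of 51 marker cells and 34 of 199 other cells (17.1%) (2 reads against 4940). It passed the filter on level and cells only through the other cells, and the ranking chose it for this gap. The cells with Tada1 were on both plates, 15 on plate 2 and 19 on plate 3. Prkca, protein kinase C alpha, was in 9 of 51 (17.6%) and 68 of 199 cells (34.2%), at 10.3 ± 28.5 and 61.5 ± 153 CPM, with log2 folds of -2.62 and -2.55 on plates 2 and 3. Lrrc4c, a synaptic adhesion protein also called netrin-G1 ligand, was in 10 of 51 and 66 of 199 cells, at 19.0 ± 56.6 and 107 ± 227 CPM. Meis2, a homeobox factor, was in 4 of 51 (7.84%) and 53 of 199 cells (26.6%), and had no read in the 17 marker cells of plate 3. Tsg101, a component of the endosomal sorting machinery, was in 7 of 51 and 48 of 199 cells.

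The other 10 lower genes were P2rx4, Arl13b, Gltp, Trappc8, Specc1l, Commd10, D19Bwg1357e, 2610002J02Rik, Selo and Stk10. They were in 1 to 6 of the 51 marker cells and 21 to 38 of the 199 other cells. All 15 lower genes had a median of 0 CPM in both classes. Tada1 overlaps Pogk, and Prkca overlaps Apoh, on opposite strands, so that reads of each pair may not be separable.

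**Figure D5:**
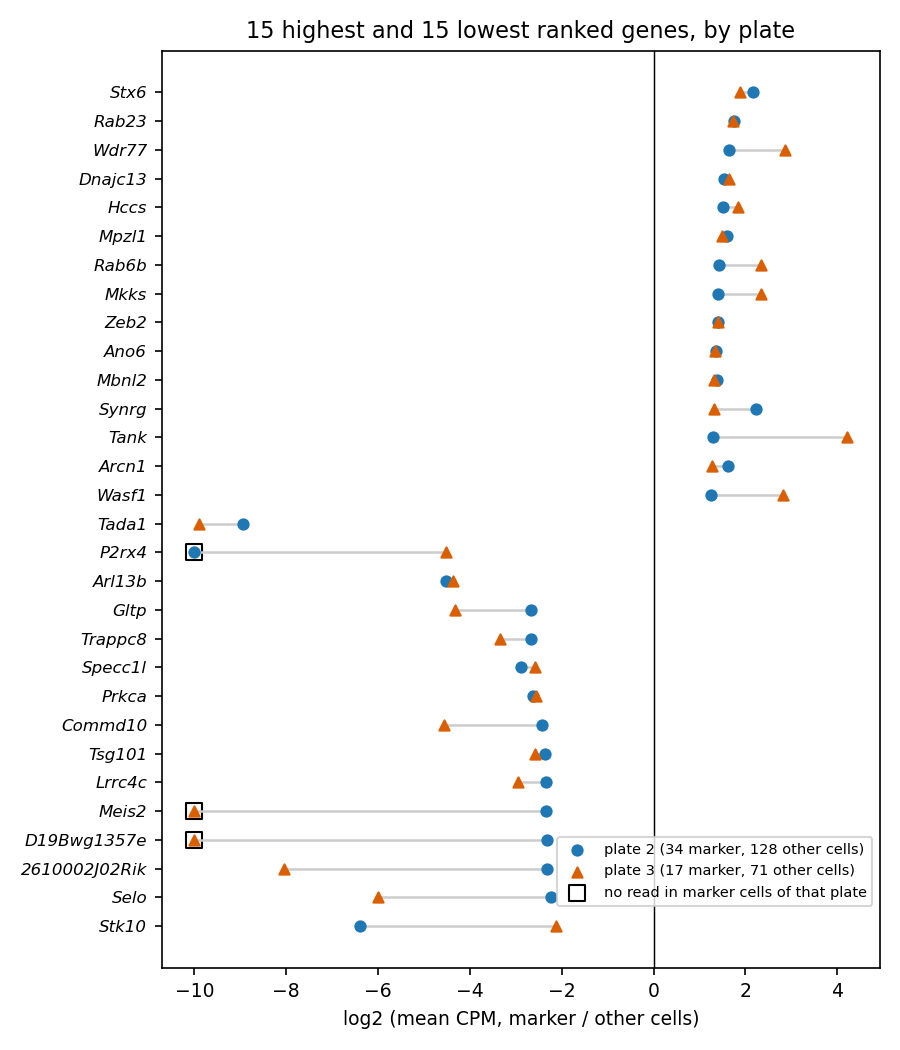
Log2 ratio of mean CPM, marker cells over other cells (x axis), for the 15 higher and 15 lower genes that rank first by the smaller of their plate values, on plate 2 (blue circles) and plate 3 (orange triangles). Boxed points at the left edge mark genes without a read in the marker cells of that plate, where no ratio exists. Several genes, among them Rab23, Mpzl1, Zeb2, Ano6, Mbnl2, Arl13b and Prkca, have nearly equal values on both plates, but the ranking chose genes with a large fold on both. On plate 3, Rab23, Zeb2, Ano6 and Prkca were each detected in only 3 marker cells, and Arl13b in 1.

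Traces of other cell types were present in both classes. At least 3 markers of another type were found in 8 of 51 marker cells (15.7%) and 39 of 199 other cells (19.6%). These were mainly oligodendrocyte genes, in 7 marker cells (13.7%) and 24 other cells (12.1%), and in 3 of the 10 core cells (30%). The summed level of the 8 oligodendrocyte markers was 870 ± 760 CPM in marker cells (0 to 2643) and 924 ± 801 in other cells (0 to 4075), and it was 1330 ± 886 in the core. The part of these traces in the results on the core was not tested. Cerebellar neuron genes were low in both classes, and 0 cells had 3 or more of the 12. At least 1 of the 12 was found in 13 of 51 marker cells (25.5%) and 44 of 199 other cells (22.1%). Gabra6 of granule neurons and Pcp2 of Purkinje neurons had no read in any cell. The smooth muscle gene Tagln, whose promoter drives the Cre, was found in 1 of 51 and 4 of 199 cells.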

How the data were processed

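The authors deposited a table of read counts for 24490 genes in 250 cells. Its values are whole-number counts that were not normalized, per the file's own values, and 16367 genes have at least 1 read. The submitters' processing notes name STAR 2.4.2a and mm10. The read counter, its use of strand, the annotation and any filter on cells were not given in the sources used here. Smart-seq2 has no molecular identifiers, so exact binomial (Clopper-Pearson) and Poisson intervals at 95% cover counting error only. The authors' second table, of scaled values, was not used.

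CPM is the authors' count per 1000000 reads of the same cell. Detected means 10 CPM or more. No cell was removed and no doublet caller was run, since cells were sorted into single wells. Cells with 3 or more markers of another cell type were counted and left out in an alternative. Plates come from the column headers and were read separately. A gene was called higher or lower where mean CPM differed by 1.5-fold or more in the same direction on both plates. Genes needed a mean of 20 CPM and 25 detected cells. Named genes are the first 15 each way, ranked by the smaller log2 fold of the plates, with no cell holding 10% or more of the summed CPM, together with members of 36 lists (335 genes, 334 with a row). Values of some genes that this rule names are left out. The marker cells and lists were chosen with earlier results of these data known. For thinning, reads of each cell were drawn without replacement to 100000. A count of 0 cells was read as allowing up to 3. Positions are from GENCODE M21 (GRCm38, the assembly of mm10), 1-based. The calculation was tested on simulated data. Python 3.11.15, numpy 2.4.6, pandas 2.3.3 and scipy 1.17.1 were used.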

Additional observations from a re-analysis of the deposited data

How the results depend on the processing

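The number of marker cells was 54 at 1 read or more, 53 at 5 CPM, 43 at 50 CPM and 52 after thinning to 100000 reads. The 282 higher genes became 104 when the highest cell of each class and plate was left out, 67 at a fold of 2, 827 without a filter on level or cells, 178 by the ratio of shares of cells and 1 among genes in 125 or more cells. The 566 lower genes became 984 for A2m without Gdf10 against neither, 894 for Gdf10 cells against neither, 1467 with the highest cell left out, 250 by mean log2 difference, 1773 for cells with both genes against neither, 250 at a fold of 2, 2882 without a filter, 265 by the ratio of shares and 14 among genes in 125 or more cells. Counts within 1.5 times of the first ones were found at 1 read, 5 CPM and 50 CPM, after thinning, with summed reads, without cells with both genes, without cells with 3 markers of another type (313 higher, 633 lower) and with median-of-ratios scaling (354 higher, 470 lower). That scaling moved the median log2 fold of all genes on plate 3 from -0.11 to -0.0020. The mean log2 difference, the cells with both genes against neither and the limit of 125 cells were chosen after seeing the data. Of the named genes, Ano6 reversed for cells with both genes against neither, to -0.23 on the log2 scale. Ano6 also went from 1.35 to 0.31 for A2m cells and 0.49 for A2m without Gdf10, Dnajc13 from 1.57 to 0.54 for A2m without Gdf10, and Hccs from 1.61 to 0.18 for cells with both genes. For Gdf10 cells against neither, Zeb2 was 0.63 (from 1.40), Mpzl1 0.85 (from 1.56) and Tank 0.76 (from 1.72). Of the Bergmann glia markers, 0 were higher under 14 of the settings, the first one included, and 1 was higher, with 2 lower, by mean log2 difference. Where a group loses cells, fewer cells enter each mean by construction; otherwise the cause was not tested.

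No paired analysis was possible because the cells form 1 group and no replicate number is shared between groups. The 17 marker cells of plate 3 and the 10 cells with both genes limit every comparison here, and a gene in few cells can pass 1.5-fold through 1 or 2 of them. No label names an animal, so differences between animals and between plates cannot be told apart. How the cells were gated and filtered is not known here, so the shares apply to the deposited cells only. Named lower genes without a read in the marker cells of a setting gave no fold there.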

Other observations

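Among the 969 genes detected in 125 or more cells, 15 passed 1.5-fold on both plates, and they were read after their values had been seen. The 1 higher gene was Sc5d, a late enzyme of cholesterol synthesis on chromosome 9, at 352 ± 470 CPM in marker cells and 203 ± 340 in other cells (SD between cells), and the gap was not shared by all subclasses. Sc5d was at 203 CPM in cells with A2m only, 476 with Gdf10 only and 499 with both. Of the 10 tested members of the cholesterol synthesis list, 0 were higher and 1, Fdps, was lower, beside 4.21% and 8.45% of all tested genes. A list of 10 is too small to compare with these shares. The lowest log2 fold among the 14 lower genes, -1.06, was that of Sirt2, a deacetylase abundant in myelinating cells, at 94.7 ± 142 against 198 ± 303 CPM, in 20 of 51 and 107 of 199 cells. Sirt2 overlaps Nfkbib on the opposite strand. The others were Nfix, Tef, Ndufa12, Ncoa1, Cuedc1, Atp5k, Npepps, Gpd2, Rrbp1, Prodh, Tuba1b, Ndufa6 and Atp5f1, with log2 folds from -1.04 to -0.69.

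Ndufa12, Ndufa6, Atp5k and Atp5f1 encode subunits of the respiratory chain and ATP synthase, so the nuclear genes of these complexes were read as a set that was chosen after its values were seen. Of the 72 tested, 0 were higher and 5 lower by the rule of both plates, which is 6.94% beside 8.45% of all genes. Without the 4 genes that drew attention to the set, 1 of 68 was lower. Below the other cells on both plates by any amount were 32 of the 72 (44.4%), beside 29.9% of all tested genes, and 6 were above on both. Of the 68, 28 were below on both plates. Their summed level was 11149 ± 3044 CPM in marker cells and 12193 ± 3847 in other cells. By plate the sums were 11185 against 12140 CPM on plate 2 and 11077 against 12286 on plate 3. In cells with both A2m and Gdf10 the sum was 10077 CPM. The spread between cells is larger than these gaps, and no test was run.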
